A study of Rattus norvegicus with 6 samples.

Results

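Immediate early genes are transcribed within minutes of a stimulus, without new protein synthesis, and 10 of them were examined in the IM tip, the terminal part of the kidney inner medulla, of control and diabetic rats. They were chosen by gene symbol: Fos, Fosb, Fosl2, Jun, Junb, Jund, Egr1, Atf3, Ier2 and Nr4a1. Of the 10, 7 had a row of their own among the 27321 features of the deposited table, namely Fos, Jun, Junb, Egr1, Atf3, Ier2 and Nr4a1. Jund was counted only together with an unnamed Ensembl gene, ENSRNOG00000039274, and this merged feature is given beside the others as uncertain. A further feature, named as a stretch between this merged feature and B0BNK5_RAT, held 1 read over all libraries and was left aside. Fosb and Fosl2 were not analysed here.

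All 6 libraries were from male Sprague-Dawley rats, 3 from rats given vehicle (citrate buffer) and 3 from rats made diabetic by a tail vein injection of streptozotocin (STZ), which destroys insulin-producing cells, at a dose of 62.5 mg/kg. The rats were 3 months of age, and they were killed by decapitation 15 days after the injection, and the IM tip, a mixture of collecting duct, thin limb, vessel and interstitial cells, was dissected before RNA extraction. Each library was made from PCR-amplified cDNA and held between 3412311 and 5575171 reads on features, 1 read being worth between 0.763 and 1.11 normalized counts.

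The proteins of these genes are transcription factors, with Ier2 as a small nuclear protein that is induced with them. Fos and Jun family proteins pair through leucine zippers to form AP-1, which binds the TPA response element, and Jun proteins also pair with ATF proteins such as Atf3 at the cyclic AMP response element (CRE). Egr1 is a zinc finger factor and Nr4a1 an orphan nuclear receptor. The genes are switched on by growth factors, calcium, cyclic AMP, osmotic stress and mechanical injury, and tissue handling before RNA is preserved is known to raise them. Fos, Egr1 and Atf3 are normally close to silent in unstimulated tissue, whereas Jund is transcribed in most resting cells.

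The promoters of Jund and Ier2 are shown because each holds the letters of a full CRE. That of Junb is shown because Jund and Junb are relatives with very different read counts below. Each is the RefSeq sequence (build GRCr8) from 250 bases before to 50 bases after the annotated start of the gene, read in the direction of the gene. Capitals mark the full CRE, TGACGTCA, or its core TGACG, found on either strand.
Jund: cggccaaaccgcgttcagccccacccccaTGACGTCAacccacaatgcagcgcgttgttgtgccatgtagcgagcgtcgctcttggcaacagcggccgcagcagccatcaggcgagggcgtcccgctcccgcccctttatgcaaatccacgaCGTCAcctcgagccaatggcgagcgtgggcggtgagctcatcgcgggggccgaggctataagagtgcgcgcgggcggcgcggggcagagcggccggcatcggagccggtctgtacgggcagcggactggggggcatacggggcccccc
Ier2: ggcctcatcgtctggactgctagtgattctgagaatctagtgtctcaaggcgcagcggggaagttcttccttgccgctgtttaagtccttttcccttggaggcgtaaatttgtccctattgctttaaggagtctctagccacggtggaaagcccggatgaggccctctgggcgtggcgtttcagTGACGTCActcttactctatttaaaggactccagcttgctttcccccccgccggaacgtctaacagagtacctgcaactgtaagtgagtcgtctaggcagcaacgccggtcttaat
Junb: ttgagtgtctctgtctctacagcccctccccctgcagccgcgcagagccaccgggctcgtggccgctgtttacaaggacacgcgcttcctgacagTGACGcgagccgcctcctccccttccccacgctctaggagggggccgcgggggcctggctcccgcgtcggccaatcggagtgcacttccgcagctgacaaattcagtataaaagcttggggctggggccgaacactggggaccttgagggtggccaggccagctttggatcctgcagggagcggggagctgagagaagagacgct

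These windows lie at chr16:18769722-18770021 on the minus strand for Jund, chr19:40399123-40399422 on the plus strand for Ier2 and chr19:40080876-40081175 on the plus strand for Junb. A full CRE began 221 bases before the start of Jund and 66 bases before that of Ier2, and among the 7 members with a promoter in RefSeq these 2 held it. Those 7 include Jund, Junb, Egr1, Ier2 and Nr4a1, and so are not the 7 genes with a row of their own. The full CRE was present in 1.83% of 33469 promoters of the same length. The core TGACG, which is part of every full CRE, occurred in 5 of the 7 members, among them Nr4a1 at 4 places and Junb 155 bases before its start, and in 21.2% of all promoters. The pattern TGANTCA, with any base at N and so wider than the AP-1 element, was in none of the 7 and in 7.33% of all. The CArG box, bound by serum response factor, occurred in Egr1 alone, at 105 and at 83 bases before its start, and in 1.64% of all promoters. Such matches describe the letters of these windows and are not evidence of binding.

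With respect to the comparison of STZ with control rats, values are normalized counts, that is, reads divided by 1 size factor per library, and the 3 values of a group stand in the order of replicates 1, 2 and 3. Changes were estimated by limma as the STZ mean minus the control mean of log2(normalized count + 1), a scale that makes the change of low genes look smaller, and p-values were adjusted (Benjamini-Hochberg) over 13486 features with a mean of at least 5. Of these features, 283 had an adjusted p under 0.05, which is 2.1%, with 1.17% higher and 0.927% lower in STZ rats. Of the 7 genes with their own row, 5 reached the mean of 5 (Fos, Egr1, Atf3, Ier2 and Nr4a1), and 0 of the 5 passed. At an unadjusted p under 0.05 there were also 0 of the 5, beside 14.7% of all features, and edgeR called 0 of the 5 on the recovered reads, beside 2.13%. DESeq2 called 0 of the 2 to which it gave an adjusted p, Fos and Egr1, beside 4.44%. Groups overlapped in all 7 genes, while 20.3% of the features tested had groups without overlap, 10.1% with STZ above control and 10.3% with STZ below. The log2 fold change was above 0 in 3 genes and below 0 in 2, with a median of 0.26, beside a median of 0.01 over all features tested.

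**Figure D1:**
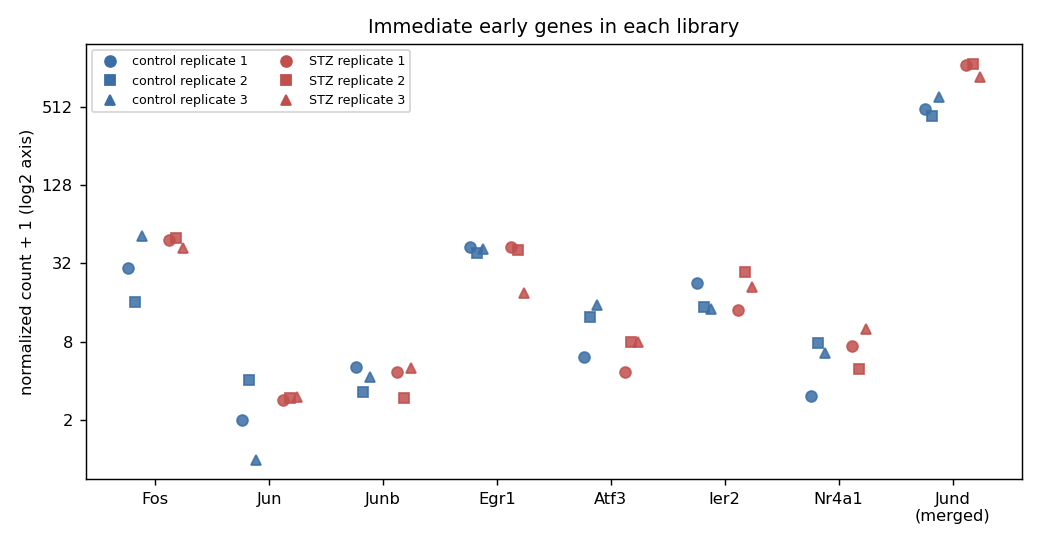
Normalized count + 1 on a log2 axis for the 7 genes with a row of their own and the merged Jund feature, 1 point for each of 3 control (blue) and 3 STZ (red) libraries. Control and STZ points overlap in the 7 genes, and in the merged Jund feature the STZ points, from 868 to 1089, lie above the control points, from 433 to 604.

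Fos, a leucine zipper partner of Jun proteins in AP-1, lies on chromosome 6 of rn4 from 109559135 to 109562001. Its normalized counts were 28.7, 15.3 and 51.2 in the control libraries, against 47.4, 49.5 and 41.2 in the STZ libraries. STZ libraries were close to each other, and control libraries covered more than their range, from the lowest to the highest library of all. Control libraries averaged 31.7 ± 18.2 and STZ libraries 46.0 ± 4.31 (SD, n = 3 per group). Control replicate 2 rested on 20 reads, with a 95% exact Poisson interval of 9.32 to 23.6 normalized counts, and control replicate 3 on 46 reads, with an interval of 37.5 to 68.3, so that these controls differed beyond counting error. The change of Fos was estimated at 0.68 on the log2 scale, with an SE of 0.38, an adjusted p of 0.457 and a 95% interval from −0.16 to 1.51. That interval holds folds from 0.896 to 2.85.

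Egr1, a factor of the early growth response, lies on chromosome 18 from 27343567 to 27347352. Control libraries held 42.0, 37.4 and 40.1 normalized counts of it and STZ libraries 41.8, 39.6 and 18.1. All libraries but STZ replicate 3 lay close together, and STZ replicate 3, with 18 reads and a counting interval of 10.7 to 28.6 normalized counts, was below them. With all libraries the change of Egr1 came to −0.35 on the log2 scale, with an SE of 0.33, an adjusted p of 0.73 and a 95% interval from −1.07 to 0.38. Without STZ replicate 3 the same estimate was 0.031.

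Ier2, a nuclear protein of the early response, lies on chromosome 19 from 25159276 to 25160796. Control libraries held 21.5, 13.7 and 13.4 normalized counts and STZ libraries 13.0, 26.7 and 20.1. Both the lowest and the highest library were from STZ rats. For Ier2 limma estimated 0.26 on the log2 scale, with an SE of 0.38, an adjusted p of 0.86 and a 95% interval from −0.57 to 1.09.

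Atf3, a stress-induced factor of the ATF/CREB family, lies on chromosome 13 from 107191622 to 107223850. Control libraries held 5.13, 11.4 and 14.5 normalized counts and STZ libraries 3.71, 6.92 and 7.03. Replicate 1 was the lowest of its group in both conditions, and it was control replicate 1 that kept the groups from separating. Between 4 and 15 reads stood behind each value, and the estimated change of −0.66 on the log2 scale (SE 0.57) had an adjusted p of 0.689 and a 95% interval from −1.91 to 0.59. The olfactory receptor background of a library was the 95th percentile of its olfactory receptor features. Atf3 exceeded it in 5 of 6 libraries, and not in STZ replicate 3, where the background was 9.03.

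Nr4a1, the orphan receptor also called Nur77, lies on chromosome 7 from 140012807 to 140020587. Control libraries held 2.05, 6.86 and 5.57 normalized counts and STZ libraries 6.50, 3.96 and 9.03, from 2 to 9 reads each. It exceeded the olfactory receptor background in 2 of 6 libraries. This count depends on the background of each library. Nr4a1 passed it with 6.50 in STZ replicate 1, where background was 1.86, and not with 9.03 in STZ replicate 3, where background was 9.03. The estimated change was 0.41 on the log2 scale, with an SE of 0.67 and an adjusted p of 0.875. Its 95% interval, from −1.06 to 1.89, holds folds from 0.479 to 3.71.

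**Figure D2:**
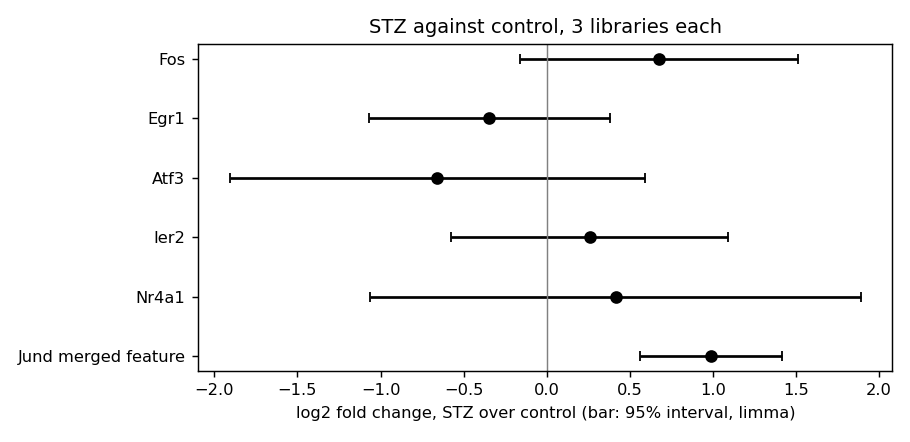
Log2 fold change of STZ over control with its 95% interval from limma for the 5 genes tested and the merged Jund feature, 3 libraries in each group. The intervals of Fos, Egr1, Atf3, Ier2 and Nr4a1 include 0, and that of the merged Jund feature runs from 0.56 to 1.42.

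Jun and Junb, the inducible partners in AP-1, were barely detected. Jun, counted on chromosome 5 from 115359397 to 115360401, had 1, 4 and 0 reads in control libraries and 2 reads in each STZ library, and never exceeded the olfactory receptor background. The Jun feature spans only 1005 bases, and reads from any part of the transcript outside it were not counted here. Junb, on chromosome 19 from 24831536 to 24833318, had 4, 3 and 3 reads in control and 4, 2 and 4 in STZ libraries, and exceeded the background in 2 of 6 libraries. Neither reached the mean of 5 needed for the test. At or near the limit of 3 reads that a count of 0 allows, no difference between the groups was detectable in either gene.

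The merged Jund feature was higher in STZ rats. Jund encodes the Jun protein that is present in resting cells and that is known to oppose growth in several cell types. The feature, which covers positions 19239695 to 19241373 of chromosome 16, had 492, 433 and 604 normalized counts in the control libraries against 1069, 1089 and 868 in the STZ libraries. The groups did not overlap, which for higher values in STZ rats held for 10.1% of the features tested (two-sided p = 0.1 by an exact permutation test, the lowest value that 3 against 3 allow). Averages were 510 ± 87.0 and 1009 ± 122 (SD, n = 3 per group), with 480 to 1151 reads per library. The estimated change was 0.99 on the log2 scale (SE 0.19, 95% interval 0.56 to 1.42) with an adjusted p of 0.029, beside the 1.17% of features called higher in STZ rats.
By edgeR this p was 0.0375 and by DESeq2 0.000168, and over 19 alternatives it ran up to 0.167 and stayed under 0.05 in 13. It rose to 0.0685 without control replicate 1, 0.151 without control replicate 2, 0.0925 without STZ replicate 1 and 0.131 without STZ replicate 2, while the log2 fold change stayed between 0.88 and 1.12 with each library left out in turn. Reads of Jund and of ENSRNOG00000039274 cannot be told apart in this feature. The nearest feature with more than 3 reads on one side, B0BNK5_RAT at a distance of 18675 bases, had 2817, 2460 and 2379 normalized counts in control and 3110, 4044 and 3176 in STZ libraries, a difference of 0.43 on the log2 scale with an adjusted p of 0.353. Groups of B0BNK5_RAT did not overlap, with STZ higher (two-sided p = 0.1 by the exact permutation test). On the other side, Lsm4 at 19691 bases differed by −0.16 (adjusted p = 0.865). Beyond it, Pgpep1 at 35276 bases differed by 0.78 (adjusted p = 0.393), with overlapping groups.

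Jun, Junb, Jund and Ier2 are intronless genes, and their levels were compared per kilobase of the feature counted. For Jund this is the length of the merged feature, and for Jun that of the part of the gene counted, so the values are not levels per full transcript. The merged Jund feature had 304 ± 51.8 normalized counts per kilobase without diabetes and 601 ± 72.6 with it (SD, n = 3 per group). Ier2 had 10.7 ± 3.03 and 13.1 ± 4.51, Junb 1.82 ± 0.510 and 1.81 ± 0.617, and Jun 1.35 ± 1.54 and 1.94 ± 0.0794 normalized counts per kilobase. In each of the 6 libraries the order was the merged Jund feature, then Ier2, then Junb and Jun. The level per kilobase of the merged Jund feature was between 20.7 and 74.5 times that of Ier2, and that of Ier2 between 4.10 and 15.8 times that of Junb. Junb was above Jun in 4 of 6 libraries, and the pair did not differ beyond their spread. Among the Jun family, then, reads came almost wholly from the feature that holds Jund, in control as in STZ rats.

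**Figure D3:**
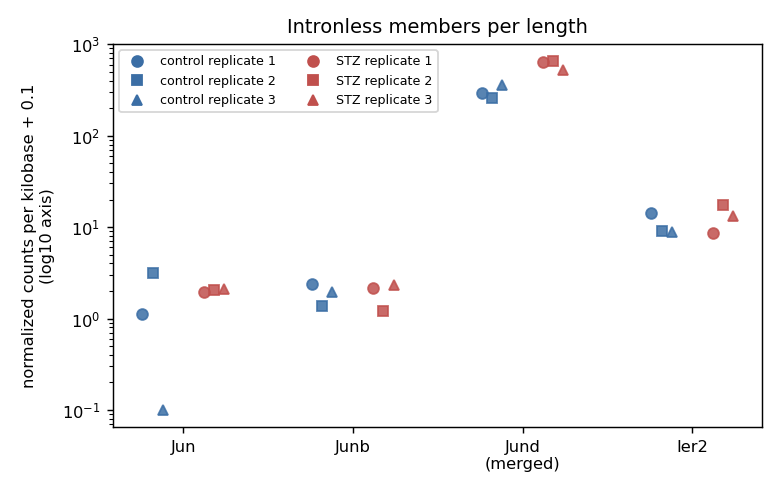
Normalized counts per kilobase of feature, with 0.1 added, on a log10 axis for the 4 intronless genes, 1 point for each control (blue) and STZ (red) library. The merged Jund feature lies between 258 and 649 per kilobase, Ier2 between 8.55 and 17.6, and Jun and Junb at or below 3.04.

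The 7 genes with their own row differed in which libraries were high. After each gene was centred on its mean over the 6 libraries on the log2 scale, the median over the 7 genes was −0.27, 0.085 and 0.074 in control and 0.23, 0.16 and 0.20 in STZ libraries. The STZ medians thus lay above the control medians, and single genes strayed by up to 1.29 from their own mean. In control replicate 1 and STZ replicate 1 the median was the value of Jun, which rested on 1 and 2 reads. That of control replicate 3 was the value of Nr4a1, on 5 reads, so the profile leans on genes near the floor. No library held the highest value of more than 2 of the 7 genes. The reads of the 7 genes together summed to between 21.2 and 33.7 RPM (relative to all reads on features) in control and between 25.3 and 29.5 RPM in STZ libraries. As summed normalized counts they came to 105, 90.0 and 128 in control and 118, 131 and 101 in STZ libraries, and on both scales the groups overlapped. The named features with a mean of at least 20 whose log2 values most resembled this profile over the 6 libraries were Pltp, Ptgfrn, Gsr, Kif3b, Fcer1g and Lphn3, with Pearson correlations from 0.997 to 0.976. All 6 were higher in STZ libraries without overlap, beside 10.1% of all features tested. They were picked for likeness to a profile that itself has this separation, so it is not a separate result. Their adjusted p-values by limma ran from 0.205 to 0.551. Of 6948 such features, 66 were above 0.9, and with 6 libraries of shared depth this is a description of likeness only.

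Other immediate early genes were read from lists of 60 genes, of which 53 were found and 43 tested. Of the 43, 2 passed by limma and by edgeR and 3 by DESeq2, the 2 being 4.65% beside the 2.1% of all features. The median log2 fold change of the 43 genes was 0.09, with 22 above 0 and 21 below. Groups did not overlap in 6 of the 43 (14.0%), beside 20.3% of all features. By class, 1 of 13 further transcription factors fell and 0 rose, and 1 of 30 effectors and feedback genes rose and 0 fell.

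Klf4 was the transcription factor that fell. It is a zinc finger factor of differentiating epithelia and of quiescent endothelium, on chromosome 5 from 73446930 to 73451286. Control libraries held 87.1, 98.4 and 111 normalized counts and STZ libraries 23.2, 33.6 and 37.1. All STZ values were under all control values, with averages of 98.9 ± 12.1 and 31.3 ± 7.24 (SD, n = 3 per group). The change of Klf4 was −1.65 on the log2 scale (SE 0.25) with an adjusted p of 0.0084, and it passed in 17 of 19 alternatives, including every omission of 1 library. Klf10, a TGF-beta-induced relative that was singled out after its values were seen, had 718, 441 and 980 normalized counts in control and 186, 216 and 526 in STZ libraries, with overlap. Its change of −1.29 on the log2 scale (SE 0.38) missed the threshold by limma, at an adjusted p of 0.126, and passed by DESeq2 at 0.0241. At the other end of the list was Cebpb, a leucine zipper factor of the acute phase response, at 0.69 on the log2 scale (SE 0.36, adjusted p = 0.422). Fosl1, another Fos family gene, had at most 2 reads in any library.

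Ier3, whose product affects cell survival and ERK signalling, was the effector that rose. It lies on chromosome 20 from 3076569 to 3077748. Control libraries held 242, 153 and 199 normalized counts and STZ libraries 456, 358 and 342, without overlap. Its change of 0.97 on the log2 scale (SE 0.22) passed by limma, at an adjusted p of 0.0479 close to the threshold, and by DESeq2 at 0.00292. It passed in 12 of 19 alternatives, and among libraries left out singly only the omission of control replicate 1 kept it under 0.05. The adjusted p was 0.202 without control replicate 2, 0.0591 without control replicate 3, and 0.148, 0.135 and 0.085 without STZ replicates 1, 2 and 3.
At the ends of the same list, Ccl2, a monocyte chemokine, had 16577, 17699 and 10535 normalized counts in control and 7603, 7614 and 1867 in STZ libraries, a difference of −1.61 on the log2 scale (SE 0.48, adjusted p = 0.124). Plaur, the urokinase receptor, had 2.05, 2.29 and 1.11 normalized counts in control, at or under 3 reads, and 16.7, 5.93 and 6.02 in STZ rats (adjusted p = 0.284). Dusp1, the phosphatase that ends MAP kinase signals, and Btg2, an antiproliferative gene, are standard reporters of the response and were singled out after their values were seen. Dusp1 differed by 0.22 on the log2 scale (SE 0.20, adjusted p = 0.696, 95% interval −0.21 to 0.66) and Btg2 by 0.17 (SE 0.20, adjusted p = 0.801, 95% interval −0.27 to 0.62).

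**Figure D4:**
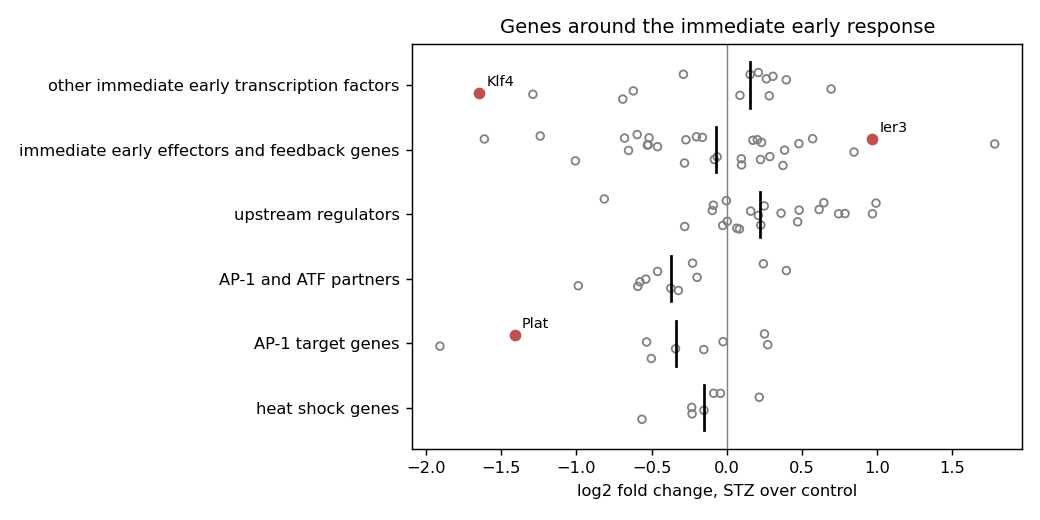
Log2 fold change of STZ over control for the tested genes of 6 lists, with filled red points for an adjusted p under 0.05 by limma, open points for the others and a black bar at the median of each list. Filled points are Klf4 at −1.65, Ier3 at 0.97 and Plat at −1.41.

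Upstream of these genes, the kinases and factors that carry the signal (MAP kinases, their activators, RSK kinases, serum response factor, Elk and Creb1) had 22 members tested, of which 0 passed by limma, beside 2.1% of all features, and 5 (22.7%) had an unadjusted p under 0.05, beside 14.7%. Their median log2 fold change was 0.22, with 16 above 0 and 6 below. In 3 of the 22 (13.6%) the groups did not overlap, with 2 higher and 1 lower in STZ libraries. The lowest was Elk3, a partner of serum response factor, at −0.81 (SE 0.22, adjusted p = 0.0929), and the highest Rps6ka1, the kinase RSK1, at 0.99 (SE 0.40, adjusted p = 0.27). Of 11 tested partners of AP-1 and ATF proteins, 0 passed by limma, beside 2.1% of all features, 1 (9.09%) had an unadjusted p under 0.05, beside 14.7%, and the median was −0.37. Groups did not overlap in 5 of the 11 (45.5%), beside 20.3% of all features, with 2 higher and 3 lower in STZ libraries. They ran from −0.99 for Maf (SE 0.65, adjusted p = 0.554) to 0.40 for Atf7 (SE 0.24, adjusted p = 0.517).

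Of 9 tested genes with known AP-1 elements, 1 fell (11.1%, beside 0.927% of all features called lower) and 0 rose, with a median log2 fold change of −0.34. The gene that fell was Plat, tissue plasminogen activator, which had 11051, 14469 and 9503 normalized counts in control and 4539, 4625 and 3861 in STZ libraries. Its change was −1.41 on the log2 scale (SE 0.23), with an adjusted p of 0.0125 that rose to 0.0795 without control replicate 2 and to 0.0517 without STZ replicate 2. In 2 of the 9 genes (22.2%), beside 20.3% of all features, the groups did not overlap, both with STZ lower. The ends of the list were Mmp13, a collagenase, at −1.91 (SE 1.06, adjusted p = 0.454), where control replicate 1 alone was high with 54.3 normalized counts, and Lcn2, a lipocalin of injured tubules, at 0.27 (SE 0.40, adjusted p = 0.862).

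Heat shock genes, which handling of tissue also raises, had 7 members tested. By limma 0 passed, beside 2.1% of all features, 1 (14.3%) had an unadjusted p under 0.05, beside 14.7%, and the median log2 fold change was −0.15. In 1 of the 7 (14.3%), beside 20.3% of all features, the groups did not overlap, with STZ lower. Hsph1, a co-chaperone, was lowest at −0.56 (SE 0.20, adjusted p = 0.195) and Hspa4l, of the same chaperone family, highest at 0.22 (SE 0.21, adjusted p = 0.745).

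Markers of the cells in the dissection differed between the groups as follows, beside the 2.1% of all features called, and their part in the values of Jund, Klf4, Ier3 and Plat was not tested. In bulk tissue, fewer cells of a type and less RNA per cell cannot be told apart. Of 9 collecting duct and thin limb markers 0 passed, with values from −0.83 for Hsd11b2 to 0.91 for Aqp3 on the log2 scale. Of these 9, 4 (44.4%) had an unadjusted p under 0.05 by limma, beside 14.7% of all features. Groups did not overlap in 4 (44.4%), beside 20.3% of all features, with 2 higher and 2 lower in STZ libraries. The summed level of the 9 was between 221449 and 291659 normalized counts in control and between 277519 and 306371 in STZ rats. Of 9 endothelial markers, Emcn (−1.38) and Plvap (−1.01) fell and Vwf (1.97) rose, while 5 of the 9 were above 0 and 4 below, with a median of 0.045. An unadjusted p under 0.05 by limma was found for 7 (77.8%) of these markers. Groups did not overlap in 6 (66.7%) of these markers, with 2 higher and 4 lower in STZ libraries. Their summed level, of which Emcn made up the largest share, was 8102 to 10030 in control and 4854 to 5378 in STZ rats. Of 4 smooth muscle markers Tagln rose (1.34) and Actg2 was lowest (−1.43, adjusted p = 0.41), with sums of 223 to 307 and 590 to 629. Of 5 urothelial markers Upk3a (3.30) and Upk1b (1.25) rose and Upk1a was lowest (0.045), with sums of 85.4 to 132 and 440 to 517. In 3 of these 5 (60.0%) the groups did not overlap, all with STZ higher.
Of 6 cortex and outer medulla markers tested Umod (−2.93) and Kap (−2.31) fell and Lrp2 was highest (0.29), with sums of 1111 to 1994 and 300.2 to 622. Of 4 red cell markers Slc4a1 fell (−1.10) and Hba2 was highest (−0.44), with sums of 4190 to 8749 and 2023 to 5055. Of 10 leukocyte markers tested 0 passed, between −0.70 for Cd14 and 1.08 for Cd3e, with overlapping sums of 1155 to 2628 and 1667 to 2586, and Ms4a1 was at or under 3 reads in every library. With 1 library left out in turn, Emcn, Tagln, Upk3a and Umod passed each time. Kap was lost without control replicate 2 (adjusted p = 0.0539), Slc4a1 without any 1 of the 6 (up to 0.107), and Vwf, Plvap and Upk1b without control replicate 1 or 2 or STZ replicate 2 or 3 (up to 0.105, 0.134 and 0.204), Plvap and Upk1b also without STZ replicate 1. The headers give lane 3 for the control libraries and lanes 7, 6 and 8 for STZ replicates 1, 2 and 3, and the 2 factors cannot be told apart.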

How the data were processed

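RNA-seq was performed on 3 RNA samples from control and 3 from STZ rat IM tips. Per the labels and the paper's methods, the authors aligned reads to rn4 with STAR 2.3.1t, counted uniquely mapped reads per Ensembl gene and divided them by DESeq 1.16.0 size factors. The counter and its use of strand are not given in the sources used here. The deposited signal is this normalized count. All 100.0% of the values were whole multiples (within 0.001 of a read) of 1 step per library, and the whole reads were recovered from them. Starts were raised by 1, since 91.4% of 835 olfactory receptor features have an end minus start that is a multiple of 3.

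limma 3.58.1 (R 4.3.3) was fitted with an intensity trend to log2(normalized count + 1) of 13486 features with a mean of at least 5. edgeR 4.0.16 and DESeq2 1.42.0 ran on the recovered reads as alternatives. Poisson intervals and the floor of 3 reads cover counting error only, since no molecular identifiers were used. The sources do not state that each RNA sample was 1 animal, so p-values measure only the spread between 3 libraries per group, which may be technical.

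The members and the gene lists (other immediate early genes, upstream regulators, AP-1 partners and targets, heat shock genes and cell markers) were chosen with earlier results of these data known. The genes named are the members, every listed gene that passed, the highest and lowest of each list with fewer than 3 such genes, and the 6 features most alike. Klf10, Dusp1, Btg2, Fosl1, Ms4a1 and the neighbours of Jund stand outside that rule. A gene of the AP-1 target list and one of the cortex and outer medulla list are not reported here and were left out of their lists' counts. Methods were tested on simulated data with changes larger than those of the members and of the merged Jund feature. Power for changes as small as theirs was not tested. Motifs and tables were made with Python 3.11.15, pandas 2.3.3 and scipy 1.17.1, and figures with matplotlib 3.10.9.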

Additional observations from a re-analysis of the deposited data

How the results depend on the processing

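The values were recomputed under 19 alternatives. These changed the pseudocount (0.5 or 5), the minimum mean (1, 20 or none), the scaling (equal totals or quantiles), the prior variance (robust, or with no intensity trend), the tool (edgeR or DESeq2) or the block, or left out 1 library. In all of them 0 of the immediate early genes with their own row passed, though only Fos and Egr1 had an adjusted p under the minimum mean of 20 and under DESeq2. Their median log2 fold change ran from 0.0025 (without control replicate 1) to 0.39 (without STZ replicate 1). Fos stayed above 0, from 0.25 to 1.09, with an adjusted p between 0.109 and 0.897. With a library left out, sign changed for Egr1 (−0.55 to 0.031), Lrp2 (−0.22 to 0.74, the second reversal being −0.20), Lcn2 (−0.12 to 0.75), Upk1a (−0.33 to 0.51, with −0.02 and −0.049 between) and Hba2 (−0.74 to 0.10). All features called were 283, and 98 with no filter, 31 with no intensity trend, 522 with quantiles, 599 with DESeq2 and 88 to 352 with a library left out. The 2 other immediate early genes called became 0 with no filter, 0 with no trend and 1 to 2 with a library left out, and the merged Jund feature had an adjusted p of 0.154 with no filter and 0.167 with no trend. More features are tested with no filter, and the cause of the other shifts was not tested. Counts near 3 reads limit Jun, Junb and Nr4a1, and Atf3 had as few as 4 reads in a library.

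Same-numbered libraries had deviations from their group means that correlated with r = 0.395, −0.061 and 0.323 for numbers 1, 2 and 3, across 9315 features. The values for numbers 1 and 3 were the highest of all pairs, while the libraries numbered 2 correlated better with other numbers. The olfactory receptor background was also nearest between libraries of the same number. In control and STZ it was 2.05 and 1.86 for number 1, 6.33 and 5.93 for number 2, and highest for number 3. Whether same-numbered libraries share more than a number was not tested. With the replicate block limma called 561 features and edgeR 549, and each called 4 of the other immediate early genes but 0 of the members. The merged Jund feature then had an adjusted p of 0.019 with limma and 0.0209 with edgeR.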
